A study of Homo sapiens with 3 samples.

Results

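The genes described here encode the proteins of blood coagulation, of fibrinolysis (the removal of clots) and of complement, together with 3 complement regulators of the cell surface. They are 52 genes chosen by symbol from a fixed list, and all 52 were found among the 19862 genes of the expression table. RNA had been sequenced from Hep3B, an established human liver cancer line, with 1 library in each of 3 groups. The HKR3 library came from cells transfected with the expression plasmid pcDNA3.1 encoding HKR3, an older name of the telomere-binding zinc finger protein ZBTB48. The library labelled siTERT came from cells transfected with a small interfering RNA named for TERT, the catalytic subunit of telomerase. The control library is labelled with the Fugene transfection reagent and titled NT-Empty, and the labels do not say which nucleic acid it received. The treatment text shared by all groups gives FuGENE HD as the reagent and 6 h at 21% oxygen before the medium was changed. It does not state when the cells were harvested. With no replicate, every value below is a single measurement, and a size rule stands in place of a test.

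The liver makes most of the circulating factors of these cascades. In coagulation, tissue factor and factor VII start a chain of proteases that ends in thrombin, which cuts fibrinogen so that it polymerises into fibrin. Antithrombin, the protein C system and tissue factor pathway inhibitor restrain this chain, and plasmin, made from plasminogen, dissolves the clot. Complement is a second protease cascade that converges on C3 and ends in the membrane attack complex. Fibrinogen is a hexamer built from paired copies of 3 chains, encoded by FGA, FGB and FGG, and its genes are textbook targets of interleukin-6 signalling and of C/EBP factors.

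The targeted genes were at 2842 FPKM for ZBTB48 in the HKR3 library, against 4.91 FPKM in the control, and at 5.37 FPKM for TERT in the library labelled siTERT, against 4.69 FPKM in the control. The targeted gene thus goes against the siTERT label, and directions given for that library belong to the label alone. FPKM is a fragment count divided by transcript length and by sequencing depth. It summed to 535516 over all genes in the HKR3 library, 579410 in the library labelled siTERT and 596536 in the control. Depth was estimated at 1.11e+07, 1.12e+07 and 1.02e+07 fragments in the same libraries, from low FPKM values taken as the worth of 1 fragment. Only values inside a range set in advance were used, which limits the depths that could be found. The intervals given below are exact binomial 95% intervals on fragments estimated from that depth, and cover counting error only. All 10 hepatocyte markers, which include the members FGB and SERPINA1, had a mean above 1 FPKM, and ALB was at 2703, 3313 and 3317 FPKM in the HKR3 library, the library labelled siTERT and the control. Endothelial and platelet markers summed to at most 0.101 FPKM in any library and stromal markers to at most 1.8 FPKM. Of 8 leukocyte markers, PTPRC, CD163 and CD3E were at 0, and 3 were above 1 FPKM, with LYZ leading a sum of 243, 441 and 432 FPKM in the same order. The 4 cholangiocyte markers summed to 112, 129 and 127 FPKM. The part of the leukocyte and cholangiocyte markers in the results below was not tested.

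The promoters of the 3 fibrinogen genes are shown because these genes form the contrast that the values below turn on, and those of CPB2, PLG and F7 because these were the members furthest below the control in the HKR3 library. Each run is the 250 bases before the annotated start, on the gene's own strand, from RefSeq on GRCh38.p14, which is not the hg19 build of the expression table. The windows lie at chr4:154590743-154590992 on the minus strand (FGA), chr4:154562761-154563010 on the plus strand (FGB), chr4:154612657-154612906 on the minus strand (FGG), chr13:46105034-46105283 on the minus strand (CPB2), chr6:160701994-160702243 on the plus strand (PLG) and chr13:113105541-113105790 on the plus strand (F7). Capitals mark matches, on either strand, to a C/EBP motif (TTNNGCAA) or the core of an interleukin-6 response element (CTGGGAA).
FGA: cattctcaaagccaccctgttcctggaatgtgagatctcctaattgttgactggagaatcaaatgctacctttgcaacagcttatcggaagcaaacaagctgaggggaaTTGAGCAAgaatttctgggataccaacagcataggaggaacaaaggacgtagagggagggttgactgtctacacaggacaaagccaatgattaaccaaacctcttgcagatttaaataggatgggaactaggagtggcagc
FGB: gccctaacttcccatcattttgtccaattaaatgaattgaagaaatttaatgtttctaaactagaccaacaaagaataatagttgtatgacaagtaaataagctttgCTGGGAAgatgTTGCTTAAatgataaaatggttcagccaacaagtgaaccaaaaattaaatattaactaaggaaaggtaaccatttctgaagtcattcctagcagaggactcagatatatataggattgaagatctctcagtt
FGG: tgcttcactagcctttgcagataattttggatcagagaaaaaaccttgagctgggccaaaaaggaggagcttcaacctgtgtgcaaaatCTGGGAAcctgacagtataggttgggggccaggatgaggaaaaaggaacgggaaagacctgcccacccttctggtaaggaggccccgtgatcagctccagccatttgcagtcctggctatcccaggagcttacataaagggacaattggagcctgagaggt
CPB2: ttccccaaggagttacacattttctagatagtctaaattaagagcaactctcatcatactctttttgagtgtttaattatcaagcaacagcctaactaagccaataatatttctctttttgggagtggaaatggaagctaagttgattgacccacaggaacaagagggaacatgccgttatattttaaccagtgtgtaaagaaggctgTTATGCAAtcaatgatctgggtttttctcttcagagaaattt
PLG: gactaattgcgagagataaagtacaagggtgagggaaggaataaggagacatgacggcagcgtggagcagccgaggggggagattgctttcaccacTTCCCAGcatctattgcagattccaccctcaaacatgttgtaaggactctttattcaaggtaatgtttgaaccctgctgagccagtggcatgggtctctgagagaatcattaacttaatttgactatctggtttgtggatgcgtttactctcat
F7: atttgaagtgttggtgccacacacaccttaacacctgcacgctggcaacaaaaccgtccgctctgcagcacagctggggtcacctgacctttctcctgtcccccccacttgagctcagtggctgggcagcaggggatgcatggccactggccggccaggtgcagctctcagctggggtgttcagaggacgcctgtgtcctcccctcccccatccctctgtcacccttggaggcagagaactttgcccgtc

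The interleukin-6 core was found 143 to 137 bases before the start of FGB and 161 to 155 bases before that of FGG, and the C/EBP motif at 141 to 134 bases in FGA and 132 to 125 bases in FGB. FGB was the 1 fibrinogen gene with both. The same letters also occurred in genes that were lower in the HKR3 library: PLG held the interleukin-6 core, and CPB2 held the C/EBP motif. F7 held none of these letters in this window. RefSeq promoters were matched for 45 of the 52 genes, and not for SERPINC1, PLAT, SERPINF2, SERPING1, C1S, C3 and C8G. The C/EBP motif occurred in 11 of these 45 promoters, or 24.4%, against 9.35% of all 27305 promoters of the same length. The interleukin-6 core occurred in 15.6%, against 9.42%. An HNF4 motif (CAAAGNNCA) occurred in 13.3%, against 4.5%, an AP-1 motif (TGANTCA) in 8.89%, against 6.89%, and a TATA box (TATAAA) in 6.67%, against 11.4%. Among the 8980 promoters whose genes averaged 1 FPKM or more, the shares were 6.53% for C/EBP, 9.63% for the interleukin-6 core, 3.31% for HNF4, 4.08% for AP-1 and 5.71% for TATA. For the TATA box the members' share was thus below that of all promoters and above that of expressed genes. Both strands were searched and each motif was counted on its own, whether or not it overlapped another. A match is a description of letters and not of binding.

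A mean of at least 1 FPKM over the 3 libraries was reached by 40 of the 52 genes. The other 12 were F8, F9, KLKB1, PROZ, TFPI2, PLAT, PLAUR, C6, C8B, C8G, C9 and MASP2. F9, which encodes factor IX, PLAT, which encodes tissue plasminogen activator, and MASP2, a protease of the lectin pathway, were listed at 0 in all libraries. The mean levels of the 40 genes spanned from F11, at 1.45, 1.6 and 1.32 FPKM in the HKR3 library, the library labelled siTERT and the control, to SERPINA1, at 817, 1304 and 1334 FPKM. SERPINA1, which encodes alpha-1 antitrypsin, ranked 68 among all genes of the control, VTN ranked 125, F2 ranked 308 and FGB ranked 389. Fewer cells expressing a gene and less of its RNA per cell cannot be told apart in such bulk libraries.

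**Figure D1:**
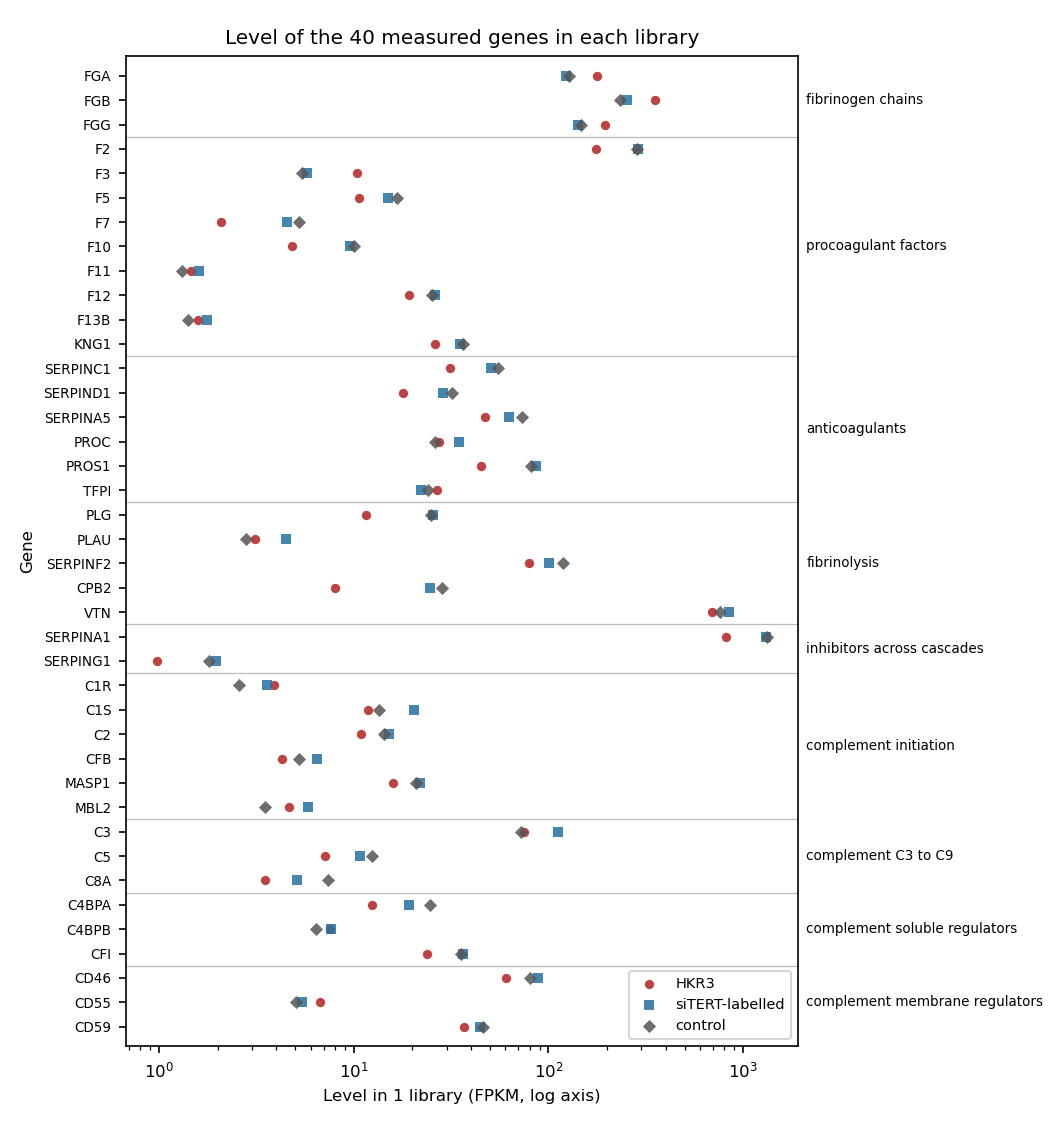
Level in FPKM (log axis) of the 40 genes that passed the filter on mean level (1 FPKM), in the HKR3 library, the library labelled siTERT and the control, with 1 point per library and no error bars because each group has 1 library. The HKR3 points of FGA, FGB and FGG lie right of both other libraries, those of CPB2, PLG and F7 lie left of both, and SERPINA1 is the highest gene of the plot at 817, 1304 and 1334 FPKM.

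The fibrinogen genes were the first comparison. FGA, encoding the alpha chain, was at 178 FPKM in the HKR3 library, 123 FPKM in the library labelled siTERT and 128 FPKM in the control. FGB, encoding the beta chain, was at 353, 254 and 234 FPKM, and FGG, encoding the gamma chain, at 196, 142 and 148 FPKM, in the same order. All 3 chains were highest in the HKR3 library, and the other libraries lay close to each other. The FPKM ratios of the HKR3 library to the control were 1.39 for FGA (counting interval 1.34 to 1.45), 1.51 for FGB (1.45 to 1.56) and 1.33 for FGG (1.27 to 1.4). On the log2(FPKM + 1) scale, used for all differences below, these were 0.48, 0.59 and 0.41, and none reached the size rule of 2-fold. After scaling to TPM, which gives every library the same total, they were 0.63, 0.75 and 0.57. Set directly against the library labelled siTERT, the chains of the HKR3 library were 0.53, 0.47 and 0.47 higher, a comparison that shares the HKR3 library with the first. In the library labelled siTERT the same chains differed from the control by -0.06, 0.12 and -0.06. The small differences of FGA and FGG in that library amount to FPKM ratios of 0.96 and 0.962.

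The sum of the 3 chains was 727 FPKM in the HKR3 library, 518 FPKM in the library labelled siTERT and 509 FPKM in the control, or 1.43 and 1.02 times the control. Per length, FGB was the most abundant chain in every library. Its level was 1.8 times that of FGG in the HKR3 library, 1.79 times in the library labelled siTERT and 1.59 times in the control, while FGA was at 0.907, 0.864 and 0.865 times FGG. The 3 genes lie next to each other on chromosome 4, in the order FGB, FGA, FGG among protein-coding genes. Of the 4 protein-coding neighbours on each side, PLRG1, a splicing factor gene next to FGB, was the 1 listed above 0, at 32.9, 27.2 and 29.2 FPKM. Its difference in the HKR3 library was 0.17, below that of each fibrinogen gene.

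Most other genes of the list were lower in the HKR3 library. Of the 37 other measured genes, 26 were below the control and 11 above it, with a median log2 difference of -0.40, and the median of the fibrinogen chains lay 0.88 above that median. Over all 40 genes, 3 lay at least 2-fold below the control, where 2.52% of the 10974 genes tested were, and 0 were at least 2-fold higher, where 5.52% of genes were. At a size of 1.5-fold, 15 of the 40 genes, or 37.5%, were lower, where 12.7% of all genes were, and 2, F3 and FGB, were higher, where 15.3% were. Those 15 were F2, F5, F7, F10, SERPINC1, SERPIND1, SERPINA5, PROS1, PLG, SERPINF2, CPB2, SERPINA1, C5, C8A and C4BPA. The list as a whole had a median of -0.37, beside -0.02 over all genes, with 26 genes below 0, or 65%, beside 51.4% of all genes, and 14 above 0, beside 48.6%. TPM scaling moved the median of all genes by 0.14. It gave 991 genes at least 2-fold higher and 208 lower, or 82.7% higher among them, beside 606 and 277, or 68.6%, as deposited. Of the 40 genes, VTN was the 1 whose sign in the HKR3 library changed with that scaling, and 25 of 40 were then below 0.

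**Figure D2:**
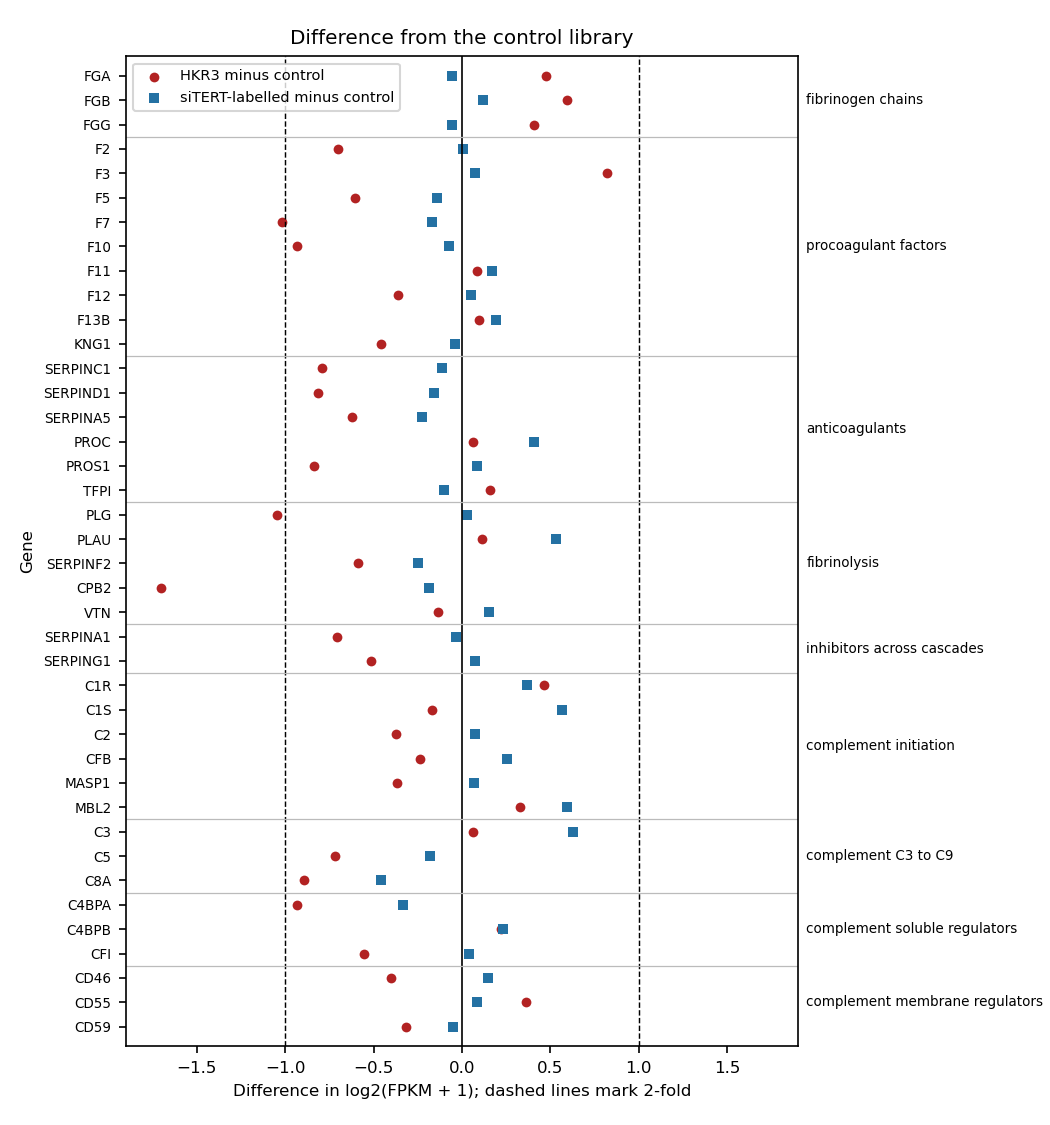
Difference from the control in log2(FPKM + 1) for the 40 measured genes, with circles for HKR3 and squares for siTERT, which share the control library. In the HKR3 library FGA, FGB and FGG lie at 0.48, 0.59 and 0.41 while CPB2 lies at -1.70, and in the library labelled siTERT the 40 genes lie between -0.46 and 0.63.

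Highly expressed genes tended to be lower in the HKR3 library, so levels were taken into account. In the top of 20 bins of mean level, from 160 FPKM up, the median of all genes was -0.30, and it was 0.02 in the lowest bin. Among the 6349 genes averaging 10 FPKM or more, 56.9% were below 0. Of the 27 list genes at that level, 21 were, or 77.8%, with a median of -0.46 beside -0.09. With the median of each gene's own level bin subtracted, the fibrinogen chains were at 0.70, 0.89 and 0.71 for FGA, FGB and FGG, and SERPINA1 was at -0.40 in place of -0.71.

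**Figure D3:**
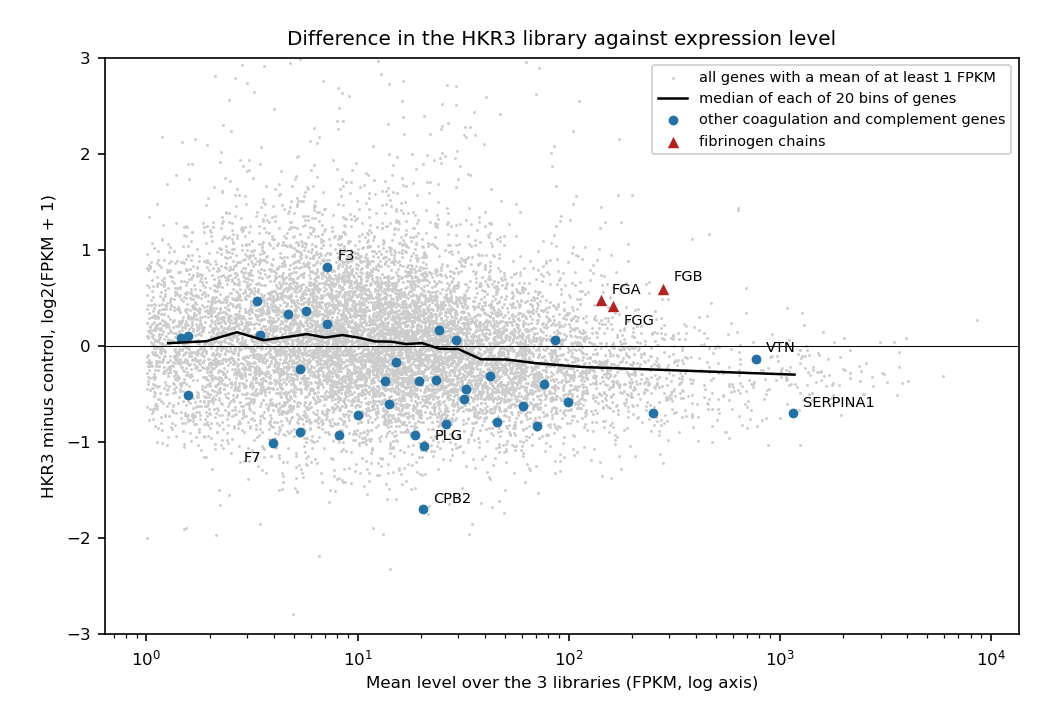
Difference between the HKR3 library and the control in log2(FPKM + 1) against the mean level in FPKM (log axis) for 10974 genes in grey, of which 15 lie outside the plotted range, with the median of 20 bins as a line. The fibrinogen chains (triangles) lie above the line at mean levels of 143, 280.3 and 162 FPKM, while most other list genes (circles) lie below it.

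Among the procoagulant factors, the order of the cascade was followed from its trigger. F3 encodes tissue factor, the membrane receptor of factor VII, and was at 10.4 FPKM in the HKR3 library, 5.78 FPKM in the library labelled siTERT and 5.43 FPKM in the control. F7, factor VII, was at 2.09, 4.56 and 5.25 FPKM in the same order. The receptor was thus highest in the HKR3 library and its ligand lowest there, with FPKM ratios to the control of 1.91 (counting interval 1.54 to 2.37) for F3 and 0.398 (0.298 to 0.528) for F7. F7, with a log2 difference of -1.02, was the 1 of 9 measured procoagulant genes at least 2-fold lower, where 2.52% of all genes were. Its call was lost with a pseudocount of 5, at -0.53, and with the median of all genes set to 0, at -0.997. F3, with 0.82, passed 2-fold after scaling to TPM, at 1.01.

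Factor X, encoded by F10 and activated by factor VII, was at 4.79, 9.52 and 10.1 FPKM in the HKR3 library, the library labelled siTERT and the control. F10 is the neighbour of F7 on chromosome 13, and its log2 difference in the HKR3 library was -0.93. It passed 2-fold with a pseudocount of 0.1, at -1.05, and with the level trend described above removed, at -1.04. Its cofactor factor V, from F5, was at 10.6, 15 and 16.7 FPKM, and prothrombin, from F2, at 176, 287 and 286 FPKM. All 3 were lowest in the HKR3 library, with FPKM ratios to the control of 0.476, 0.637 and 0.615. The level of FGB per length was therefore 2.01 times that of F2 in the HKR3 library, against 0.884 times in the library labelled siTERT and 0.819 times in the control, so that the order of thrombin precursor and substrate differed between libraries.

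The contact pathway differed less. F12, factor XII, was at 19.3, 26.1 and 25.1 FPKM in the HKR3 library, the library labelled siTERT and the control, and KNG1, encoding kininogen, at 26.2, 35.3 and 36.3 FPKM. Both were lower in the HKR3 library by less than 1.5-fold, at -0.36 and -0.46. F11, factor XI, and F13B, the carrier subunit of factor XIII, were weakly expressed in every library, and their counting intervals against the control ran from 0.667 to 1.81 and from 0.687 to 1.86. No difference in them was detectable at this depth. F8, factor VIII, and KLKB1, plasma prekallikrein, were at most at 0.207 FPKM.

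The anticoagulants were mostly lower in the HKR3 library. SERPINC1, encoding antithrombin, was at 31.3, 50.7 and 54.9 FPKM in the HKR3 library, the library labelled siTERT and the control. SERPIND1, heparin cofactor II, was at 17.8, 28.7 and 32.1 FPKM, and SERPINA5, the protein C inhibitor, at 47, 62.4 and 73 FPKM. SERPINA5 is grouped here although protein C, which it inhibits, is itself a restraint on coagulation. The HKR3 library was lowest and the control highest for each of these 3 serpins, with log2 differences between them of -0.79, -0.82 and -0.62. PROS1, encoding protein S, was at 45, 86.3 and 81.2 FPKM, whereas PROC, encoding the protein C whose cofactor protein S is, was at 27.2, 34.9 and 26.1 FPKM. PROS1 was lower in the HKR3 library by 0.84 and PROC was within counting error of the control, with a ratio of 1.04 (0.922 to 1.19). The ratio of PROS1 to PROC was accordingly 1.65 in the HKR3 library, 2.47 in the library labelled siTERT and 3.12 in the control. Of the PROS1 sequence, in units of 31 bases, 13.6% is shared with other genes, most with the pseudogene PROS2P.

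Tissue factor pathway inhibitor, from TFPI, was at 26.8, 22.2 and 23.9 FPKM in the HKR3 library, the library labelled siTERT and the control. With the higher F3 of the HKR3 library, the ratio of TFPI to F3 was 2.59, against 3.84 in the library labelled siTERT and 4.4 in the control. TFPI2, a related inhibitor, was under the level filter at 1.29, 0.254 and 0.148 FPKM, about 25, 5 and 3 fragments. Its ratio of the HKR3 library to the control was 8.73, with a counting interval of 2.35 to 39.8. The level of PROZ, protein Z, was at most 0.442 FPKM.

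The gene furthest below the control in the HKR3 library was CPB2. It encodes carboxypeptidase B2, also called TAFI, which trims fibrin so that less plasmin forms on it. CPB2 was at 8.01 FPKM in the HKR3 library, 24.7 FPKM in the library labelled siTERT and 28.3 FPKM in the control. Its ratio to the control was 0.283 (0.235 to 0.342), and its log2 difference of -1.70 ranked 15 from the lowest among 10974 genes. CPB2 was the 1 member past 2-fold under every alternative pseudocount, level filter, scaling and centring tried, between -1.81 and -1.35. PLG, encoding plasminogen, was at 11.5, 25.4 and 24.9 FPKM, a log2 difference of -1.04 that was -0.92 after scaling to TPM and -0.85 with a pseudocount of 5. PLG shares 24.4% of its sequence with other genes, most with PLGLB1, which was at 0.409 FPKM in the HKR3 library, 0.0817 FPKM in the library labelled siTERT and 0 in the control. The plasmin inhibitor gene SERPINF2, encoding alpha-2 antiplasmin, was at 79.1, 100.4 and 119 FPKM, so that its ratio to PLG was 6.86 in the HKR3 library, 3.96 in the library labelled siTERT and 4.8 in the control.

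VTN, encoding vitronectin, an adhesive protein of plasma and matrix, was at 695, 848 and 764 FPKM in the HKR3 library, the library labelled siTERT and the control. Its log2 difference of -0.14 in the HKR3 library was 0.02 after scaling to TPM. PLAU, encoding urokinase, was at 3.1, 4.49 and 2.79 FPKM and was highest in the library labelled siTERT. PLAUR, the urokinase receptor, was at 0.572, 0.716 and 0.436 FPKM, under the level filter. SERPING1 encodes the C1 inhibitor, which acts on both cascades, and was at 0.968, 1.96 and 1.81 FPKM. The ratios of the HKR3 library to the control were 0.613 (0.599 to 0.626) for SERPINA1 and 0.536 (0.292 to 0.919) for SERPING1. SERPING1 rested on about 21, 44 and 37 fragments in the HKR3 library, the library labelled siTERT and the control.

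**Figure D4:**
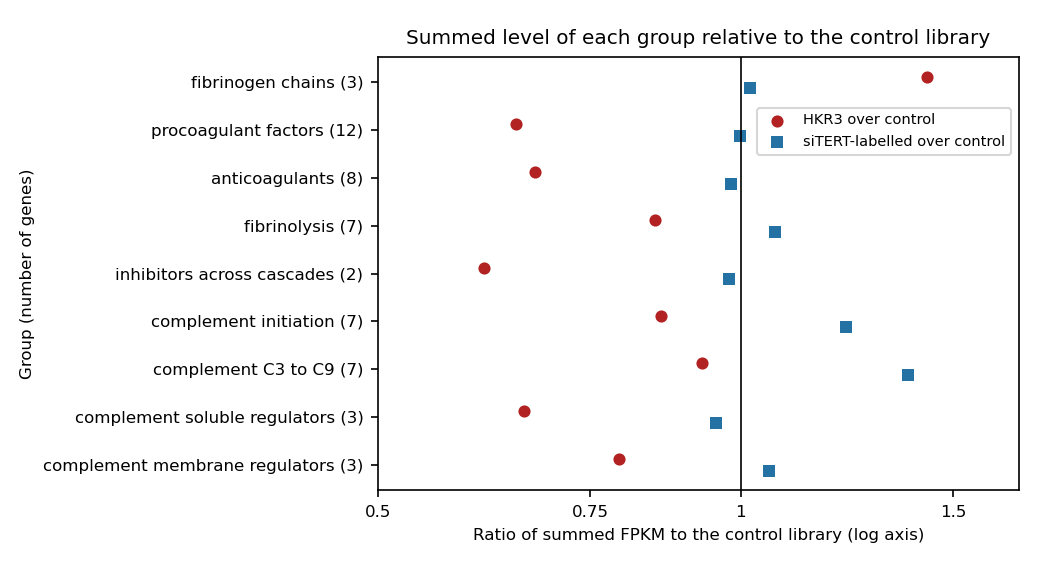
Ratio of summed FPKM to the control (log axis), with circles for HKR3 and squares for siTERT, for 9 groups that together hold all 52 genes. The sums are of FPKM as deposited, without scaling to the same total. In the HKR3 library the fibrinogen sum is at 1.43 and the other 8 groups lie between 0.612 and 0.929, while in the library labelled siTERT the sum of C3 to C9 is at 1.38. C3 makes up 112 of the 129 FPKM of that last sum, and C5 and C8A are below the control in that library. In the HKR3 library SERPINA1 makes up 817 of the 818 FPKM of its sum with SERPING1. VTN makes up 695 of the 798 FPKM of the fibrinolysis sum, which also holds CPB2 and PLG. As a share of each library's FPKM sum, C3 to C9 is at 0.0163% in the HKR3 library and 0.0157% in the control. By that share the groups other than C3 to C9 and fibrinogen remain lower in the HKR3 library.

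In complement, the chains of C4b-binding protein and the proteases of C1 differed unequally in the HKR3 library. C4BPA and C4BPB encode the alpha and beta chains of C4b-binding protein, which restrains the classical pathway and carries protein S in plasma. C4BPA was at 12.4 FPKM in the HKR3 library, 19.3 FPKM in the library labelled siTERT and 24.6 FPKM in the control, while C4BPB was at 7.56, 7.62 and 6.35 FPKM. C4BPA was lowest in the HKR3 library and C4BPB lowest in the control, and their ratio was 1.64, 2.53 and 3.87 in the HKR3 library, the library labelled siTERT and the control. Both genes lie side by side on chromosome 1, and the counting interval of C4BPB, 0.833 to 1.67, includes a ratio of 1. C1R and C1S encode the proteases of the C1 complex and are neighbours on chromosome 12. C1R was at 3.9, 3.58 and 2.56 FPKM and C1S at 11.8, 20.3 and 13.4 FPKM, so that C1S was 3.02 times C1R in the HKR3 library, against 5.67 times in the library labelled siTERT and 5.24 times in the control. For the HKR3 library against the control, the counting interval of C1S, 0.757 to 1.02, includes a ratio of 1. That of C1R was 1.1 to 2.09, on about 108 and 66 fragments. C1R shares 11.9% of its sequence with other genes, most with its paralog C1RL, which was at 5.03, 9.63 and 7.59 FPKM.

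C3, the component on which all pathways converge, was at 75.2 FPKM in the HKR3 library, 112 FPKM in the library labelled siTERT and 72 FPKM in the control. Its difference in the HKR3 library was 0.06. C5, the next component, was at 7.09, 10.7 and 12.3 FPKM, and C8A, the alpha chain of C8, at 3.51, 5.11 and 7.38 FPKM. Both were lowest in the HKR3 library, at -0.72 and -0.90, and the FPKM ratio of C8A was 0.475 (0.363 to 0.611). C8A passed 2-fold under the same settings as F10, at -1.05 and -1.02. The other C8 chains, C8B and C8G, were under the level filter, at 0.632, 0.831 and 1.06 FPKM and at 0.424, 0.592 and 0.972 FPKM in the same order. They ranked the libraries as C8A did, but their counting intervals for the HKR3 library against the control, 0.278 to 1.2 for C8B and 0.0924 to 1.47 for C8G, include a ratio of 1. C6 and C9 were at most 0.175 FPKM in any library.

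Among the starters of complement, C2 and CFB, which encode the proteases of the classical and alternative C3 convertases, had 10.8, 15.2 and 14.3 FPKM (C2) and 4.28, 6.45 and 5.24 FPKM (CFB) in the HKR3 library, the library labelled siTERT and the control. Both values were lowest in the HKR3 library, though the counting interval of CFB against the control, 0.647 to 1.04, includes a ratio of 1. They share 36.6% and 42.9% of their sequence with other genes, most with a read-through transcript of the pair that was at most 0.218 FPKM. MASP1, a protease of the lectin pathway, was at 15.8, 21.8 and 20.8 FPKM. MBL2, the mannose-binding lectin that recruits it, was at 4.65, 5.82 and 3.51 FPKM, lowest in the control. CFI, the protease that inactivates C3b and C4b, was at 23.8, 36.3 and 35.3 FPKM. It shares 34.5% of its sequence with other genes, most with AC126283.2, which had no entry among the deposited values, so its level could not be seen. At the cell surface, CD46, a cofactor of CFI, was at 60.4, 88.7 and 80.2 FPKM, and CD59, which blocks the membrane attack complex, at 36.7, 44.3 and 46 FPKM. CD55, which speeds the decay of convertases, was at 6.73, 5.39 and 5.02 FPKM, and was the 1 of these 3 surface regulators that was highest in the HKR3 library.

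In the library labelled siTERT, few of the list's genes differed from the control. None of the 40 genes reached 2-fold, where 0.282% of all genes were that much higher and 0.2% lower. At 1.5-fold, C3 and MBL2 were higher, 2 of 40 genes where 1.69% of all genes were, and 0 were lower, where 1.24% were. C3 was higher by 0.63, with an FPKM ratio of 1.55 (1.49 to 1.62), and MBL2 by 0.60, with a ratio of 1.66 (1.33 to 2.08). C1S and PLAU came next, at 0.57 and 0.53, followed by PROC at 0.41. All 6 measured complement starters were above the control, from 0.07 to 0.60. For C2 (0.925 to 1.21), MASP1 (0.97 to 1.14) and CFB (0.997 to 1.53), however, the counting interval against the control includes a ratio of 1. That of C1R was 1.01 to 1.93. C5, C8A and C4BPA were below the control, at -0.18, -0.46 and -0.34. Above 0 were 23 of the 40 genes, beside 47.4% of all genes, and below 0 were 17, beside 52.6%. The median of the 40 genes was 0.05, beside -0.01 over all genes, and the fibrinogen median lay 0.11 below that of the other genes. After scaling to TPM, SERPINA1 was the 1 gene of the 40 whose sign in that library differed, at 0.01 in place of -0.03.

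Set directly against the library labelled siTERT, the HKR3 library had 33 of 40 genes below 0, or 82.5%, where 50.5% of all genes were. CPB2 and PLG were at least 2-fold lower, at -1.51 and -1.07, or 2 of 40 genes where 1.38% of all genes were, and 0 were at least 2-fold higher, where 4.11% were. At 1.5-fold, 13 were lower, where 9.71% of genes were, and F3 was the 1 higher, at 0.75, where 12.9% were. The 7 genes above 0, beside 49.4% of all genes, were FGA, FGB, FGG, F3, TFPI, C1R and CD55, and C4BPB joined them after scaling to TPM. The median of the list was -0.44, and that of the fibrinogen chains lay 0.92 above that of the other genes. This comparison reuses both libraries and is no independent repeat of the ones above.

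Other genes of these pathways were taken from lists that do not overlap the 52. Of 20 further coagulation and fibrinolysis genes, 10 passed the level filter. None of these was 2-fold or more from the control in log2(FPKM + 1) in either transfected library. Of all genes, 5.52% were that much higher and 2.52% lower in the HKR3 library, and 0.282% and 0.2% in the library labelled siTERT. Nearest of the 10 was F2RL1, encoding a protease-activated receptor cut by trypsin. F2RL1 was at 11.7, 9.21 and 5.81 FPKM in the HKR3 library, the library labelled siTERT and the control. It was 0.90 higher in the HKR3 library, an FPKM ratio of 2.01, and passed 2-fold at 1.09 after scaling to TPM. In the HKR3 library 7 of the 10 were below the control, beside 51.4% of all genes. HABP2, which encodes a plasma protease that can activate factor VII, was at 5.85, 15.6 and 9.99 FPKM in the HKR3 library, the library labelled siTERT and the control. It was the 1 gene of these 10 that differed at least 2-fold between the HKR3 library and the library labelled siTERT, at -1.28. Of all genes, 1.38% were that much lower in this comparison and 4.11% higher. F2RL2, encoding another protease-activated receptor, was under the level filter with a mean below 1 FPKM, at 1.78, 0.305 and 0.0317 FPKM. Of 26 further complement genes, 4 were measured and all 4 were below the control in the HKR3 library, beside 51.4% of all genes, among them CFD, encoding the protease factor D, at -0.58, C1QBP at -0.52 and CLU, encoding clusterin, at -0.48. C4A and C4B, a near-identical pair, were at most at 0.029 FPKM.

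The vitamin K cycle, which carboxylates factors II, VII, IX and X and proteins C, S and Z, was measured with the chaperones and receptors of factor secretion. All 9 of these genes were below the control in the HKR3 library, from -0.71 to -0.07, beside 51.4% of all genes. Each of the 9 averaged 10 FPKM or more, and of all genes at that level 56.9% were below the control. At least 2-fold lower were 0 of the 9, beside 2.52% of all genes. Of these, LMAN1 and VKORC1L1 lay above the control, both at 0.08, after scaling to TPM. GGCX, the carboxylase, was at 19.3, 26.9 and 31.1 FPKM in the HKR3 library, the library labelled siTERT and the control, and VKORC1, which recycles vitamin K, at 56.7, 72.7 and 90.1 FPKM. Each was lower in the HKR3 library by 0.66. LMAN1 and MCFD2, the cargo receptor pair of factors V and VIII, differed by -0.07 and -0.20.

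Liver transcription factors are given as values beside the fibrinogen chains. CEBPD, a C/EBP factor of the acute phase, was at 147 FPKM in the HKR3 library, 63.1 FPKM in the library labelled siTERT and 39.5 FPKM in the control, and FOXA2 at 65, 33.4 and 30.4 FPKM. CEBPD and FOXA2, at 1.87 and 1.07, were the 2 of 11 measured factors at least 2-fold higher in the HKR3 library. Of all genes, 5.52% were. CEBPA, by contrast, was at 226, 336 and 358 FPKM and HNF4A at 55.4, 84.7 and 72.1 FPKM, both lowest in the HKR3 library. STAT3, the transcription factor of interleukin-6 signalling, was at 20.2, 16.9 and 13.9 FPKM. Whether these factors have a part in the fibrinogen values was not tested.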

How the data were processed

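RNA sequencing was available for 3 libraries, 1 per group, with groups taken from the treatment labels. The tools were STAR 2.5.0, Cufflinks and Cuffdiff 2.2.1, and the build hg19, per the submitters' processing notes. The library kit was strand-specific, per the labels' protocols. Annotation, settings and whether quantification used strand were not given in the sources used here. The authors deposited FPKM per gene and library. Where values are divided by all mapped fragments, a gene that takes many fragments lowers the FPKM of the others. Of 19869 entries, 19310 were matched to a symbol by Ensembl identifier. The 10 that shared a symbol were summed, and 4 short noncoding RNAs were left out.

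Differences are log2(FPKM + 1), which understates changes of weak genes, over the 10974 genes whose mean reached 1 FPKM. A 2-fold size rule replaced a test. Some genes of the other lists and the motif results tied to them are not reported here. All 52 members were accounted for, and those at least 2-fold different and the fibrinogen chains were always given by value. Of the other pathway genes those at least 2-fold different were to be named, and the rest named were chosen after their values were seen. The members and lists were chosen with earlier results of these data known. Fragments were estimated from low FPKM values of genes that GENCODE 29 gives a single transcript of 1000 bases or more, and members' fragments from their principal transcript. The depth is the median over values within a range set in advance for 1 fragment, so that range bounds it. For genes with several promoters, the start furthest downstream was used. The code that applies the size rule was tested on simulated data with known changes. Python 3.11.15, pandas 2.3.3 and scipy 1.17.1 were used. The alternatives were pseudocounts of 0.1 and 5, no level filter or 5 FPKM, TPM, a median of 0, removal of the trend over 20 level bins, and a 1.5-fold rule.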

Additional observations from a re-analysis of the deposited data

How the results depend on the processing

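Each alternative kept the direction of the fibrinogen contrast and of the list's median in the HKR3 library. Against the control, the fibrinogen median lay 0.88 above that of the other genes, and 0.77 with a pseudocount of 5, 0.98 with a mean of at least 5 FPKM and 1.11 with the level trend removed. Against the library labelled siTERT it lay 0.92 above, and 1.16 with the trend removed. The median of the list against the control, -0.37, was -0.23 after scaling to TPM. The causes were not tested beyond the construction of each alternative.

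The 3 genes more than 2-fold below the control in the HKR3 library numbered 5 with a pseudocount of 0.1, 1 with a pseudocount of 5, 5 with the trend removed and 15 at 1.5-fold. Of all genes, 2.52% were lower in the main setting, and 4.45%, 0.847%, 2.56% and 12.7% under these alternatives. The count was 2 after scaling to TPM, 2 with the median of all genes set to 0 and 2 with a mean of at least 5 FPKM. In those settings 1.9%, 2.31% and 2.66% of the genes tested were lower. Genes higher numbered 0, 1 after scaling to TPM (F3), and 2 at 1.5-fold, where 5.52%, 9.03% and 15.3% of all genes were. Against the library labelled siTERT, 2 lower genes became 3 with a pseudocount of 0.1, 1 with a pseudocount of 5, 1 after scaling to TPM and 13 at 1.5-fold. The share of all genes lower, 1.38%, became 2.94%, 0.31%, 1.2% and 9.71%. In the same comparison 0 higher genes became 1 at 1.5-fold, where the share of all genes went from 4.11% to 12.9%. In the library labelled siTERT against the control, 0 higher genes became 2 at 1.5-fold, where the share of all genes went from 0.282% to 1.69%. Over all genes, the 606 higher and 277 lower in the HKR3 library were 874 and 488 with a pseudocount of 0.1, and 238 and 93 with a pseudocount of 5. Those of the library labelled siTERT were 31 and 22, 103 and 57, and 10 and 3 in the same order.

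Among values of single members, 807 were on the same side of 2-fold as in the text, 6 lost and 6 gained that call. Among medians of role groups, 147 moved by less than 0.1 and 42 by more or across 0. No paired analysis was possible because each group has 1 library. Depth limits genes with few fragments, such as TFPI2, F8 and SERPING1.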
